A study of Homo sapiens with 16 samples.

Results

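The SAS-open peaks are 4980 regions of accessible chromatin that were read strongly in SAS cells and weakly or not at all in Cal33 cells, out of 159774 autosomal and 164980 total peaks. A peak was taken when its mean over the 8 SAS libraries reached 5 CPM, that is, counts scaled so that each library sums to 1e+06, and was at least 8 times the mean over the 8 Cal33 libraries, with both siRNAs together. Of the 44720 autosomal peaks with a SAS mean of at least 5 CPM, 11.1% were SAS-open. The mirrored rule gave 589 Cal33-open peaks. SAS and Cal33 are established cell lines from squamous cell carcinomas of the head and neck, negative for papillomavirus. Both were transfected with a pool of siRNAs against ITGA7, the integrin α7 subunit that binds laminin, or with a non-targeting control. The labels' growth and treatment texts, which speak of RNA work, describe culture in a laminin-rich matrix, and it was taken that the ATAC-seq cultures were handled in the same way. Matrix embedding is recorded at 24 h and nuclei at 48 h for every library, so the siRNA effect was seen at a single time. ATAC-seq, in which a transposase cuts open DNA and inserts sequencing adapters, was run on 4 biological replicates each of SAS siITGA7, SAS siControl, Cal33 siITGA7 and Cal33 siControl. Each line is 1 cell line, so a difference between SAS and Cal33 is a difference between these lines only. ATAC-seq does not measure ITGA7 RNA, so the depletion itself was not checked here.

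Accessible chromatin marks promoters, where transcription starts, and distal elements such as enhancers, which act on promoters at a distance. Promoters of widely used genes tend to be open in most cell types, while distal elements are more often open in some cells and closed in others. In cancer cells the pattern is also altered by extra copies of a chromosome segment, since more copies give more reads, and by methylation of CpG dinucleotides, which accompanies closed promoters.

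Total counts in peaks ran from 758590 to 1867047 in SAS siITGA7, from 1766033 to 4870187 in SAS siControl, from 8646532 to 13285086 in Cal33 siITGA7 and from 3980563 to 8367079 in Cal33 siControl. SAS siITGA7 was thus the shallowest group, although its deepest library had more counts than the shallowest SAS siControl library. Promoter-class peaks of at least 5 CPM were found in SAS for 12 of 26 squamous and basal identity genes and 16 of 26 epithelial junction genes, against 2 of 14 fibroblast markers and 2 of 20 endothelial and blood cell markers. Cal33 had 12, 16, 3 and 2. The scale between lines mattered: trimmed-mean (TMM) library factors averaged 1.44 and 1.27 in the SAS siITGA7 and SAS siControl groups and 0.758 and 0.723 in the Cal33 siITGA7 and Cal33 siControl groups. With TMM-scaled CPM the same rule gave 2111 peaks, of which 51.4% lay on chromosome 12.

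The gene starts inside SAS-open peaks that carry the main contrasts are shown first, as 300-base windows from RefSeq (GRCh38.p14), 250 bases before to 50 after the start, read 5′ to 3′ on the strand of the gene. SINHCAF (chr12:31326101-31326400, minus strand) stands for the accessible block at the start of chromosome 12. VGLL3 (chr3:86991100-86991399, minus strand) and TENM2 (chr5:167754679-167754978, plus strand) lead groups of SAS-open peaks on other chromosomes. SETD6 (chr16:58515267-58515566, plus strand), CHFR (chr12:132887556-132887855, minus strand), UBB (chr17:16381091-16381390, plus strand) and ZNF566 (chr19:36489512-36489811, minus strand) are starts that were nearly unread in Cal33. Capitals mark the CpG dinucleotides, the bases at which DNA can be methylated.
SINHCAF: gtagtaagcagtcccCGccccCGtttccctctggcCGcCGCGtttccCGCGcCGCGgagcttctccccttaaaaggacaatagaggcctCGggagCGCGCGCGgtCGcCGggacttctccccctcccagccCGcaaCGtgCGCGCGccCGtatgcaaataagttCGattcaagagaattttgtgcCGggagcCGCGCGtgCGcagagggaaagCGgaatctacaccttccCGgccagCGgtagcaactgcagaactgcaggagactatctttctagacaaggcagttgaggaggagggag
VGLL3: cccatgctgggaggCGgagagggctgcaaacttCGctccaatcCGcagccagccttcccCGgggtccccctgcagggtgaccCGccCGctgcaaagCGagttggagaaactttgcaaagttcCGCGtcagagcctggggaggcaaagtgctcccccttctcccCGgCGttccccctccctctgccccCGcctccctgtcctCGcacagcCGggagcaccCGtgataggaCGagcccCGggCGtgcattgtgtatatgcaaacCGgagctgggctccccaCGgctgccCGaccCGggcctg
TENM2: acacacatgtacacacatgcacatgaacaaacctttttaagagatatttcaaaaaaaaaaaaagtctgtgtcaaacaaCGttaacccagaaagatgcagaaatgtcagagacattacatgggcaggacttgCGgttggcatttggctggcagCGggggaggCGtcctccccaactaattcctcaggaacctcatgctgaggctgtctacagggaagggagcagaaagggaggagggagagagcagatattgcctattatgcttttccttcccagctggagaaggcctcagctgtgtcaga
SETD6: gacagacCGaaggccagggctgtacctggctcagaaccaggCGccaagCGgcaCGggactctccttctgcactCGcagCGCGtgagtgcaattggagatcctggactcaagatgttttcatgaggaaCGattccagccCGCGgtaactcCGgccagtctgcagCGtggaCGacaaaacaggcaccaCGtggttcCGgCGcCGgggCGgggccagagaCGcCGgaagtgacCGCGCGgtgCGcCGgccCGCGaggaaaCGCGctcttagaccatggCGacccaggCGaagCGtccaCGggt
CHFR: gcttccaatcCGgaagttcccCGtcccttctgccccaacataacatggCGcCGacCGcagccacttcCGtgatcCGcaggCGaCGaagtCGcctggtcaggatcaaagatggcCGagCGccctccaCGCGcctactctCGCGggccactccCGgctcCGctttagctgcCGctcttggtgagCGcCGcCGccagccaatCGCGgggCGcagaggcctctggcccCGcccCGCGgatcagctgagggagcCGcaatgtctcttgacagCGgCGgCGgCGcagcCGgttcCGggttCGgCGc
UBB: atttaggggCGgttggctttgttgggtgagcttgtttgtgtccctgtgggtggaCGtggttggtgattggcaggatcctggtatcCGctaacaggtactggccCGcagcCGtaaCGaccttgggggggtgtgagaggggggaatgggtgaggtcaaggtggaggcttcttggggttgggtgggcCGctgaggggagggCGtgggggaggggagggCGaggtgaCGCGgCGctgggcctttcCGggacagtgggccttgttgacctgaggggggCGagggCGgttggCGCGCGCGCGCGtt
ZNF566: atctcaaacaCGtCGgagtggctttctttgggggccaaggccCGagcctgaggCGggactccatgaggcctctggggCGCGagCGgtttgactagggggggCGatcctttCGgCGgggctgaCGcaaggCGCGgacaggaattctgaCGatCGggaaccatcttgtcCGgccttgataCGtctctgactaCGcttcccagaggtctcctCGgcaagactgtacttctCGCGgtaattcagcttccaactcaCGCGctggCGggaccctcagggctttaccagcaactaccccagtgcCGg
The windows hold 31 CpG dinucleotides at SINHCAF, 22 at VGLL3, 4 at TENM2, 33 at SETD6, 37 at CHFR, 21 at UBB and 25 at ZNF566. TENM2 is thus CpG-poor and the others are CpG-rich.

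The SAS-open peaks were mostly weak, narrow and away from promoters, with a small number of very strong members. Their SAS mean had a median of 9.07 CPM and a highest value of 790.6 CPM, and their Cal33 mean had a median of 0.549 CPM. In 4949 members (99.4%) every SAS library was above every Cal33 library, and 24 members had no count in any Cal33 library. The members were selected on these mean CPM values of the 2 lines, which therefore describe the set and test nothing. The median width was 760 bases, against 1194 bases in the other peaks of at least 5 CPM in SAS. By the deposited annotation 48.3% were intronic, 27.3% intergenic, 11.2% at promoters, 7.07% at transcript ends and 6.12% exonic. Among the other peaks of at least 5 CPM, promoters made up 29.4%. At the threshold, the 3 members with the smallest ratio were peaks in PMFBP1, at LINC01485 and near NANOS1 (8.0001, 8.002 and 8.003 times the Cal33 mean), and the 3 peaks just outside lay near CLIP2, C8orf90 and HMGA2 (7.9998, 7.998 and 7.998 times).

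Chromosome 12 carried 1411 SAS-open peaks (28.3%), and 1217 of these lay in its first 40 Mb. There 74.4% of the peaks of at least 5 CPM in SAS were SAS-open, against 11.8% on the rest of chromosome 12 and 8.73% over all autosomes without the first 40 Mb. Chromosome 5 (16.8%) and chromosome 8 (14.3%) came next, and chromosome 15 (3.86%) was lowest.

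**Figure D1:**
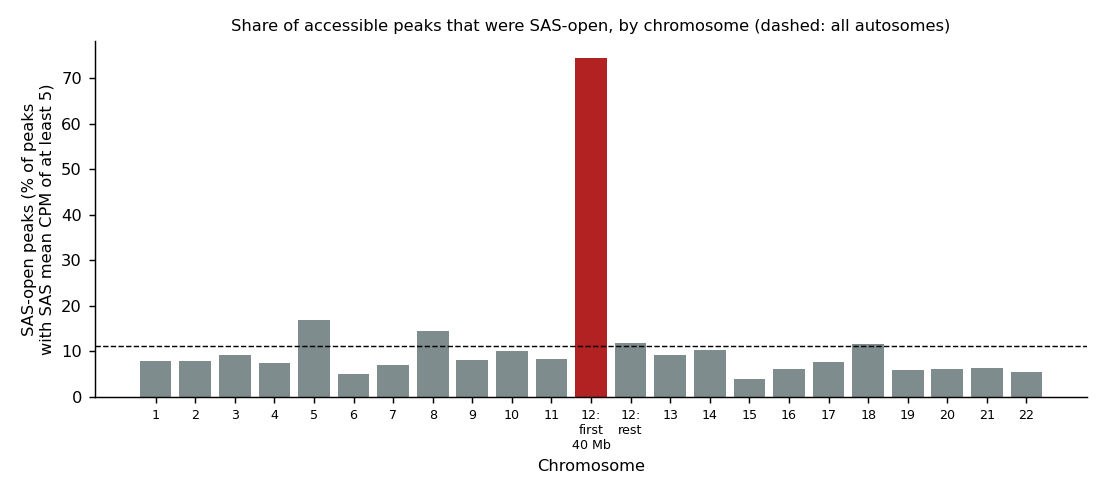
Share of the autosomal peaks with a SAS mean of at least 5 CPM that were SAS-open, in percent, by chromosome, with chromosome 12 divided at 40 Mb. The first 40 Mb of chromosome 12 reach 74.4%, chromosomes 5 and 8 reach 16.8% and 14.3%, and the dashed line marks 11.1% over all autosomes.

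In the first 40 Mb of chromosome 12 most peaks outside promoters that were open in SAS were SAS-open, while the median promoter there had a like level in both lines. Of 1424 peaks of at least 5 CPM outside promoters, 1162 (81.6%) were SAS-open, and the median ratio of SAS to Cal33 was 52.6. Of 212 promoter peaks in the same 40 Mb, 55 (25.9%) were SAS-open, and the median ratio was 1.04. Elsewhere the medians were 1.71 outside promoters and 0.900 at promoters. From 25 to 30 Mb, the stretch with ITPR2, LMNTD1 and RASSF8, 365 of 392 peaks outside promoters were members, and 17 of 32 promoter peaks were. From 10 to 15 Mb, the stretch with GRIN2B, 262 of 311 peaks outside promoters and 9 of 37 promoter peaks were members, and the promoter median was 0.590. The share varied along the stretch. From 0 to 5 Mb, 116 of 192 peaks outside promoters (60.4%) were members, and from 15 to 20 Mb 1 of 11 was. The number of gene copies in either line was not measured here.

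**Figure D2:**
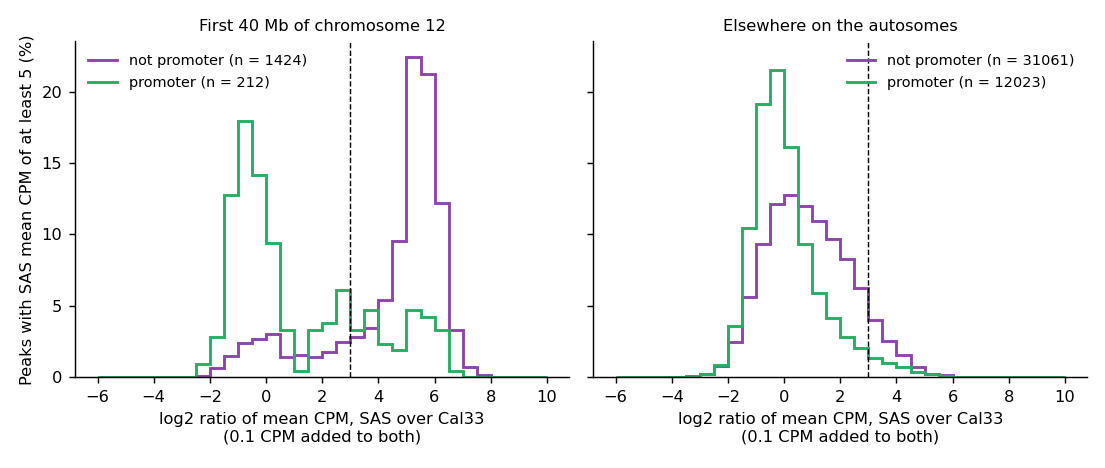
Distribution of the log2 ratio of mean CPM, SAS over Cal33 (0.1 CPM added to both), for peaks with a SAS mean of at least 5 CPM, in the first 40 Mb of chromosome 12 and on the other autosomal DNA, with peaks at and outside promoters drawn apart in percent. In the first 40 Mb most peaks outside promoters lie beyond the dashed line at 8 times Cal33, while promoters centre near equal levels.

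The members formed unbroken runs there. The longest run was 243 SAS-open peaks in succession from 13463295 to 14228883 on chromosome 12 (GRCh38), 766 kb that cover GRIN2B, a subunit of the NMDA glutamate receptor of neurons, and reach towards ATF7IP. The next 4 runs were on the same chromosome, with 61 peaks at RASSF8 (25802879 to 26097720), 57 in ANO2 (5697617 to 5928359), 54 across ANO2 and NTF3 (5505733 to 5675941) and 46 near PARP11 (3888824 to 4050569). Of the 15 runs of at least 20 peaks, 14 were in the first 40 Mb of chromosome 12. Elsewhere 3062 of the 3763 members stood alone, with no SAS-open peak as a direct neighbour.

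By gene, GRIN2B had 228 of its 229 peaks of at least 5 CPM SAS-open, ITPR2, a calcium channel of the endoplasmic reticulum, 124 of 130, and ANO2, a calcium-gated chloride channel, 109 of 111. LMNTD1 had 82 of 87, ALG10, a glycosyltransferase of N-glycan assembly, 79 of 93, NTF3, the growth factor neurotrophin 3, 60 of 63, and RASSF8, a RAS association domain protein, 60 of 60. PARP11 had 53 of 55, VWF, the clotting factor of endothelium, 47 of 52, and KCNA5, a potassium channel, 41 of 44. These counts give each peak to the gene that contains it or, between genes, to the nearest protein-coding gene, and 134 of the 228 GRIN2B peaks were inside the gene.

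The strongest member, of the intron class, lay 157 kb from CCND2, the cyclin D2 gene (chromosome 12, 4115798 to 4118461). It had 827, 799, 798 and 735 CPM in SAS siITGA7 and 774, 809, 763 and 820 CPM in SAS siControl. In Cal33 it had 49.0, 53.1, 57.2 and 56.9 CPM with siITGA7 and 45.0, 39.7, 47.1 and 42.8 CPM with siControl. The lines did not overlap, whereas the siRNA groups of SAS did. In an intron of GRIN2B, the strongest peak of that gene (13941094 to 13942272) had 67.2, 90.6, 105 and 91.6 CPM in SAS siITGA7 and 104, 72.5, 93.4 and 101 CPM in SAS siControl. Cal33 had 2.41, 1.97, 1.62 and 2.46 CPM with siITGA7 and 1.88, 2.01, 4.30 and 2.51 CPM with siControl. Again only the lines were apart. At the start of SINHCAF, a subunit of a SIN3 histone deacetylase complex (31322892 to 31326556), there were 401, 404, 442 and 383 CPM in SAS siITGA7 and 518, 459, 484 and 543 CPM in SAS siControl. Cal33 had 37.0, 32.2, 41.4 and 40.3 CPM with siITGA7 and 32.98, 37.4, 28.7 and 32.5 CPM with siControl. Here the SAS siITGA7 libraries were all below the SAS siControl libraries.

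Other members among the strongest were a peak 158 kb from PARP11 (613 CPM in SAS and 44.6 CPM in Cal33), the start of ITPR2-AS2 (402 and 11.4 CPM), an intron of DNAI7 (370 and 20.8 CPM), and a promoter-class peak 40.04 kb from SSPN (350 and 21.0 CPM). A further 3 of the top 10 were far from genes and lay on chromosomes 1 and 16.

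Away from chromosome 12 the strongest SAS-open peaks lay in gene-poor DNA beside centromeres. A peak at 125178869 to 125180625 on chromosome 1, 3717 kb from the nearest gene of the annotation used (LINC02798), had 852, 1018, 1216 and 792 CPM in SAS siITGA7 and 578, 488, 428 and 509 CPM in SAS siControl. Cal33 had 14.2, 12.4, 10.9 and 16.6 CPM with siITGA7 and 13.0, 11.6, 12.5 and 10.4 CPM with siControl. Both the lines and the SAS siRNA groups were fully apart. Peaks of the same kind stood on chromosome 16 at 46386885 (679 CPM in SAS and 27.0 CPM in Cal33) and at 34581243 (558 and 20.3 CPM), and on chromosome 4 at 49709332 (89.8 and 8.71 CPM). The chromosome 4 peak met the rule only with the siITGA7 libraries. Its siControl means were 21.7 CPM in SAS and 8.38 CPM in Cal33, a ratio of 2.59. The counting of reads that map to several places is not stated in the labels, so levels of peaks in such repeated DNA are uncertain.

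Members near genes elsewhere formed smaller groups. VGLL3, a cofactor of TEAD transcription factors, had all 16 of its peaks of at least 5 CPM SAS-open, and in its surroundings from 85 to 90 Mb on chromosome 3 there were 24 of 34. The peak over the VGLL3 start (86989880 to 86992080) had 141, 116, 119 and 115 CPM in SAS siITGA7 and 135, 109, 129 and 143 CPM in SAS siControl. Cal33 had 10.6, 9.14, 8.69 and 9.54 CPM with siITGA7 and 5.50, 5.02, 6.10 and 4.18 CPM with siControl. In Cal33 the siRNA groups did not overlap, while in SAS they did. TENM2, a teneurin of cell adhesion in neurons, had 27 of 44 peaks SAS-open. Its CpG-poor start (chromosome 5, 167753772 to 167755346) had 51.4, 49.5, 45.3 and 48.7 CPM in SAS siITGA7 and 51.5, 41.3, 39.0 and 38.4 CPM in SAS siControl, and between 0.335 and 1.45 CPM in the 8 Cal33 libraries.

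On the tip of chromosome 5, from 0 to 5 Mb, 137 of 250 peaks were SAS-open. They included 18 of 23 at AHRR, the repressor of the aryl hydrocarbon receptor, 14 of 16 at SLC9A3, a sodium-proton exchanger, and the start of TERT, the catalytic subunit of telomerase (19.3 CPM in SAS and 1.58 CPM in Cal33). On chromosome 8, 21 of 73 peaks at or near TSNARE1 and 15 of 59 near MYC were members. The strongest of those nearest to MYC lay 335 kb from it, with 69.1 CPM in SAS and 6.32 CPM in Cal33. Single strong peaks stood in introns of ZMIZ1 (81.8 and 9.30 CPM) and FBLN2, a fibulin of elastic and basement membrane matrix (78.8 and 6.47 CPM).

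**Figure D3:**
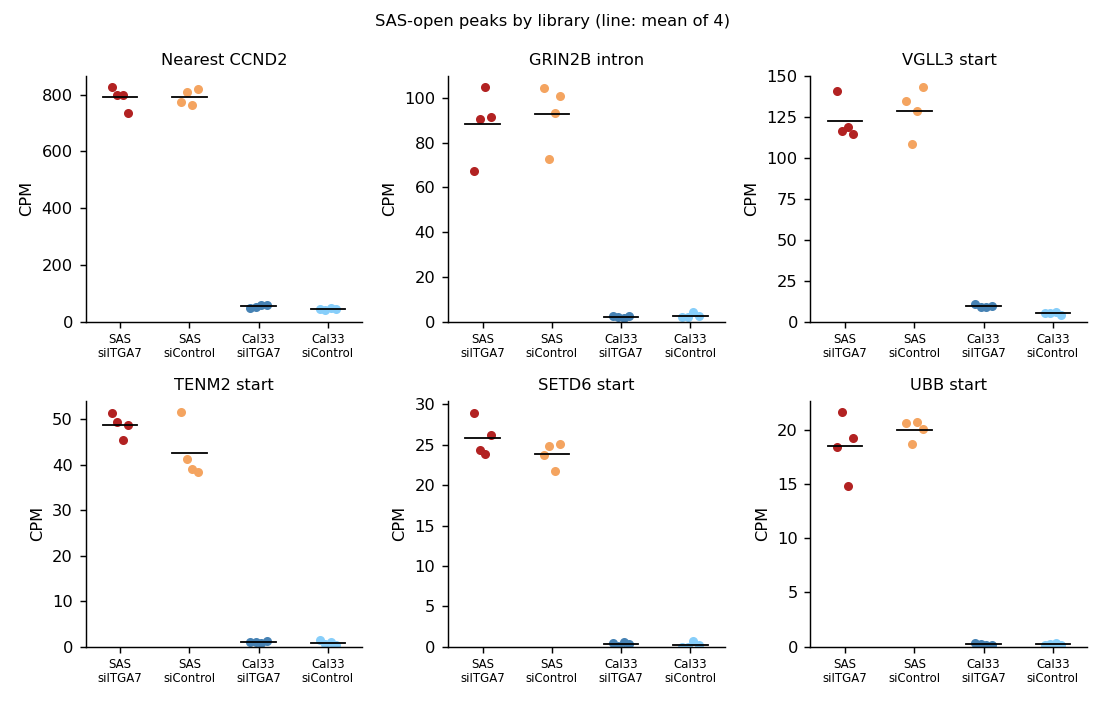
CPM of 6 SAS-open peaks in each of the 16 libraries, with a line at the mean of 4. In every panel the 8 SAS libraries are above the 8 Cal33 libraries, and the siITGA7 and siControl libraries of SAS overlap.

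At gene starts the SAS-open set held fewer CpG-rich promoters than other open promoters did. RefSeq windows with their start inside a SAS-open peak numbered 308 (276 genes) and had a median of 18.5 CpG dinucleotides and 62.3% G and C. Windows whose start lay in another peak of at least 5 CPM in SAS (15452) had medians of 27 and 66.0%, and all 33725 autosomal windows had medians of 14 and 58.7%. At least 20 CpG dinucleotides were present in 48.1% of the SAS-open windows and in 72.4% of the other open windows.

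Motifs were counted on both strands of these windows. GGGCGG, the SP and KLF motif, which itself holds a CpG, was in 51.3% of SAS-open windows, 71.2% of other open windows and 45.0% of all windows. The ETS motif CCGGAA, with a CpG as well, was in 19.5%, 29.1% and 17.3%. The SOX motif ACAATG was in 11.4%, 5.78% and 10.8%, and the GATA motif AGATAA in 7.47%, 4.43% and 10.4%. AP-1 (TGANTCA) was in 7.79%, 6.07% and 7.67%, and the TEAD motif GGAATG in 14.0%, 11.0% and 14.0%. Of the 10 others searched, the RUNX motif TGTGGT was in 9.42%, 9.26% and 13.1%, the forkhead motif TGTTTAC in 2.27%, 2.41% and 3.45%, and the homeobox motif TAATTA in 2.92%, 1.70% and 4.91%. The core motif of the insulator factor CTCF was in 0.649%, 1.87% and 1.59%.

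A number of CpG-rich starts were read in SAS and nearly unread in Cal33. Elsewhere than in the first 40 Mb of chromosome 12, 108 SAS-open peaks covered a start with at least 20 CpG dinucleotides, and 61 of them had a Cal33 mean under 0.5 CPM. SETD6, a lysine methyltransferase (chromosome 16, 58515231 to 58516498), had 29.0, 24.4, 23.9 and 26.2 CPM in SAS siITGA7 and 23.7, 24.9, 21.8 and 25.1 CPM in SAS siControl. Cal33 had 0.452, 0.116, 0.607 and 0.308 CPM with siITGA7 and 0, 0, 0.717 and 0.167 CPM with siControl. The peak at UBB, a polyubiquitin gene (chromosome 17, 16380630 to 16381499), had 18.5, 21.6, 14.8 and 19.3 CPM in SAS siITGA7 and 20.6, 18.7, 20.7 and 20.0 CPM in SAS siControl. Cal33 had between 0.101 and 0.376 CPM. For both genes the SAS siRNA groups overlapped.

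CHFR, a ubiquitin ligase of a mitotic checkpoint (chromosome 12, 132887253 to 132888167), had 13.2, 17.4, 11.5 and 11.8 CPM in SAS siITGA7 and 23.2, 17.6, 23.4 and 24.8 CPM in SAS siControl, against at most 0.452 CPM in any Cal33 library. All SAS siITGA7 libraries were below all SAS siControl libraries, and the log2 change was -0.71 ± 0.19 (SE, n = 4 per group; edgeR adjusted p = 0.00903). Further CpG-rich starts with under 0.5 CPM in Cal33 were those of GOLT1A (22.7 CPM in SAS and 0.239 CPM in Cal33) and TWIST2, a factor of epithelial to mesenchymal transition (16.8 and 0.498 CPM). These genes were chosen after their values were seen.

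Zinc finger genes were frequent among these starts. On chromosome 19, 18 of 98 promoter peaks of zinc finger genes (18.4%) were SAS-open, against 8 of 557 promoter peaks of other genes (1.44%). This count was made after the values were seen and is a description. Over all autosomes there were 23 such members, with 5.55 to 21.0 CPM in SAS and 0.124 to 1.08 CPM in Cal33. The strongest, at ZNF566 (chromosome 19, 36489043 to 36490282), had 11.9, 9.76, 25.6 and 18.7 CPM in SAS siITGA7 and 20.6, 24.9, 26.9 and 29.8 CPM in SAS siControl. Those groups overlapped, and the log2 change was -0.56 ± 0.18 (SE, n = 4 per group; edgeR adjusted p = 0.0412). Of the 23, 0 were called higher and 2 lower after siITGA7 in SAS, ZNF566 and ZNF71, with 18 of 23 changes (78.3%) below 0. A promoter-class peak at ZNF816-ZNF321P that was also called lower (-0.95) is not in this count of lower calls. Promoter peaks elsewhere than in the first 40 Mb of chromosome 12 that were not members, 11316 tested, had 0.999% higher, 7.49% lower and 70.1% below 0, so these shares are near the background of promoters. The peak over the first exon of ZNF549, of the exon class and so not among the 23, also fell (-0.65 ± 0.21, SE, n = 4 per group; edgeR adjusted p = 0.0340).

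Across 18 lists of genes, squamous and epithelial genes had few SAS-open peaks, and mesenchymal and developmental genes had more. Squamous and basal identity genes had 5 of 167 peaks SAS-open (2.99%), 2 at GRHL2, an epithelial factor (up to 16.6 CPM in SAS and 1.64 CPM in Cal33), and 1 each at or near JAG1, TFAP2A and SOX2. Keratinocyte differentiation genes had 1 of 65, near MAF. Epithelial junction genes had 3 of 107, all of them at CTNNA1. Inflammatory genes had 2 of 67 (PTGS2 and CSF2) and interferon genes 2 of 52 (IFI44 and IRF1). All of these shares were below the 11.1% of all peaks of at least 5 CPM. They were also below the 8.73% outside the first 40 Mb of chromosome 12, where all or nearly all peaks of these lists lay.

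Mesenchymal genes had 25 of 141 (17.7%). They included a peak at TGFBI, a secreted matrix protein (26.3 CPM in SAS and 0.864 CPM in Cal33), with no RefSeq start of TGFBI inside it. Others were 6 of 13 peaks at or near COL6A3, a collagen VI chain (up to 25.2 CPM, with 1.66 CPM in Cal33), and a peak near MMP9, a gelatinase (17.0 and 1.74 CPM). Homeobox and T-box factors had 30 of 168 (17.9%), with 4 of 9 at or near TBX3 (36.4 and 0.590 CPM), 7 of 15 at or near IRX2 (21.1 and 1.10 CPM) and 1 of 3 near DLX4 (20.3 and 0.720 CPM). Forkhead, GATA, SOX and RUNX factors had 24 of 181 (13.3%), among them peaks at or near GATA2 (14.8 and 1.73 CPM) and GATA5 (12.1 and 1.47 CPM). That share is near the 11.8% of the constitutive genes. Of 21 members of this list tested in SAS, 12 passed the rule on the siControl libraries alone. The GATA2 peak did not, with siControl means of 12.3 CPM in SAS and 1.62 CPM in Cal33. Integrin genes had 5 of 72 (6.94%), led by ITGA4 (14.7 and 0.751 CPM), ITGA5 and ITGA11, and ITGA7 had none. Laminin and basement membrane genes had 9 of 120 (7.50%), led by LAMB1, LAMB3 and COL4A1.

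The 3 lists with the highest SAS-open shares drew most members from the first 40 Mb of chromosome 12. Neural genes had 245 of 343 (71.4%), but 15 of 101 (14.9%) elsewhere, with 4 of 8 at or near NRXN3. Endothelial and blood cell markers had 54 of 96 (56.3%), of which VWF and CD4 held 50, and 4 of 41 (9.76%) elsewhere. The promoters of this list were SAS-open in 0 of 2 cases. Cell cycle genes had 48 of 145 (33.1%), 28 near CCND2, 15 near MYC and 3 near CCND1. Growth factor receptor and MAPK feedback genes had 14 of 205 (6.83%), led by ETV4 (40.6 and 2.83 CPM), SPRY4 and EGFR. TGF-beta, WNT and Notch genes had 14 of 209 (6.70%), led by TCF7, DLL1 and BMP2. Cancer-testis genes had 3 of 32 (DAZL and PRAME), fibroblast markers 2 of 22 (PDGFRA and COL1A2), and constitutive genes 6 of 51, among them peaks at or near SDHA, YWHAZ and POLR2A.

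The second question was how these peaks responded to ITGA7 depletion. Of members that passed the rule on siControl libraries alone, 36.4% of those in the first 40 Mb of chromosome 12 were called higher after siITGA7 in SAS, and 4.74% of those elsewhere, against 4.04% of all peaks tested. Among peaks elsewhere that were not members, 2.40% were called higher. The share of all counts that fell in the members of the first 40 Mb of chromosome 12 was 3.39, 3.62, 3.63 and 3.46% in SAS siITGA7 and 3.05, 3.06, 2.90 and 3.06% in SAS siControl. Elsewhere it was 4.82, 4.63, 4.73 and 4.65% in SAS siITGA7 and 4.25, 4.25, 4.10 and 4.13% in SAS siControl. In both places the groups did not overlap. These shares count all members, including those that met the rule only with the siITGA7 libraries. The share in promoter-class peaks moved the other way, with 29.7 to 30.6% in SAS siITGA7 and 33.1 to 34.1% in SAS siControl, and its part in the result was not tested. In Cal33 all members together took 0.396 to 0.461% of the counts with siITGA7 and 0.345 to 0.440% with siControl, and these groups overlapped.

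**Figure D4:**
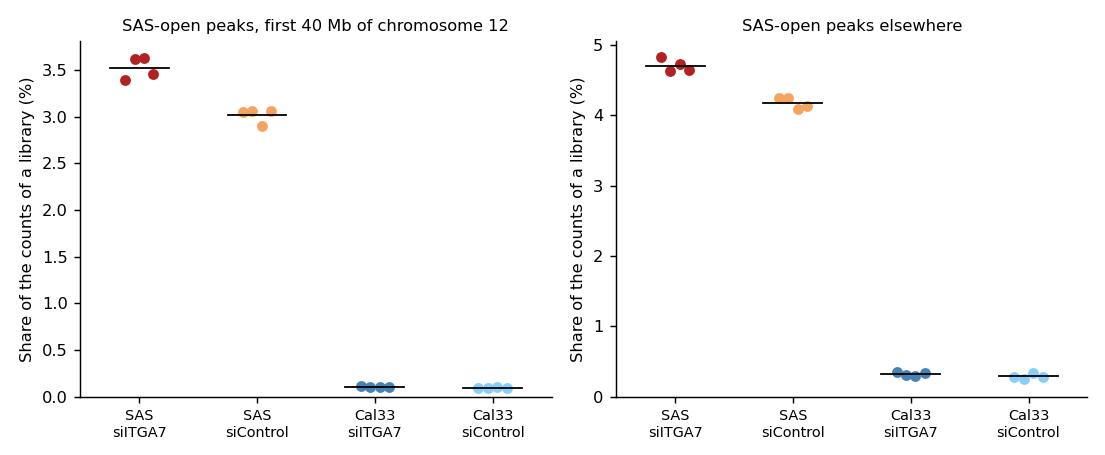
Share of the counts of each library, in percent, that fell in SAS-open peaks of the first 40 Mb of chromosome 12 and elsewhere, with a line at the mean of 4 libraries. SAS siITGA7 libraries lie between 3.39 and 3.63% in the first panel and above all SAS siControl libraries in both, and Cal33 libraries lie near 0.

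Peak by peak, 817 of 4556 SAS-open peaks tested (17.9%) were higher and 48 (1.05%) lower in SAS by edgeR's quasi-likelihood test at an adjusted p under 0.05, and 424 did not pass the filter on low counts. Over all 43600 peaks tested, 4.04% were higher and 2.99% lower. The rule, however, counted the siITGA7 libraries, so a peak that passed through them had to be high there. Of the 4980 members, 4055 also passed on the siControl libraries alone, and the other 925 held 277 of the 817 higher calls and 0 of the lower calls. The total of calls depended on tool and depth, with 270 (236 higher, 34 lower) by DESeq2 and 187 (180 higher, 7 lower) after all libraries were thinned to the smallest.

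Among members that passed on the siControl libraries alone, in the first 40 Mb of chromosome 12, 407 of 1119 tested (36.4%) were higher and 10 lower, and the median log2 change was 0.44. Other peaks in the same 40 Mb, 409 tested, had 4.16% higher, 4.40% lower and a median of -0.05. Elsewhere, 133 of 2804 members (4.74%) were higher and 38 (1.36%) lower, with a median of 0.03. When the rule was run on the siControl libraries only and no membership by the full rule was asked, the share elsewhere was 4.01% higher and 1.82% lower. The higher share elsewhere is thus near the 4.04% of all peaks, a figure that counts the members too. It is above that of the other peaks elsewhere, 38635 tested, with 2.40% higher and 3.21% lower. The difference between these shares was not tested.

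**Figure D5:**
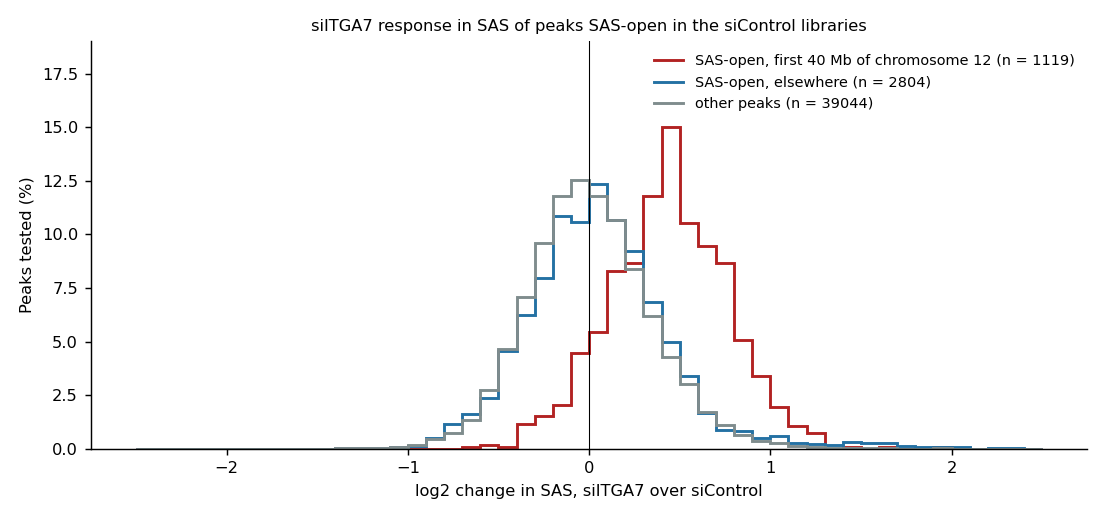
Distribution of the log2 change in SAS, siITGA7 over siControl, in percent of the peaks tested, for members that also passed on the siControl libraries alone in the first 40 Mb of chromosome 12 and elsewhere, and for all other peaks, with changes beyond 2.5 placed in the end bins. The first group centres at 0.44 and the second near 0.

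Within the first 40 Mb of chromosome 12 the share called varied with the class of the peak, a description with no test. Of members that passed on the siControl libraries alone, 241 of 639 intronic peaks (37.7%) and 134 of 357 intergenic peaks (37.5%) were higher, against 11 of 49 promoter peaks (22.4%), and 4 of 49 promoter peaks (8.16%) were lower. Among other peaks tested in the same 40 Mb, 4.55% of 132 intronic, 7.50% of 80 intergenic and 1.94% of 155 promoter peaks were higher. Of these 155 promoter peaks 7.10% were lower, so the lower share of the member promoters is near that background. Per gene, over the members that passed on the siControl libraries alone, 120 of 228 GRIN2B peaks tested were higher and 0 lower (median log2 change 0.50), 47 of 114 at ITPR2 (0.52), 27 of 52 at or near ALG10 (0.75) and 28 of 53 near PARP11 (0.48), while 17 of 106 at ANO2 were higher and 2 lower (0.28). Of all 79 members named by ALG10, 0 lay inside the gene and 1 at its promoter. All 10 lower calls of the stretch were among the members over 50 CPM in SAS.

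Examples show both directions in this stretch. A peak 22.5 kb from CACNA1C, a voltage-gated calcium channel (2719815 to 2721131), had 120, 57.2, 57.7 and 75.0 CPM in SAS siITGA7 and 17.7, 32.3, 20.3 and 16.1 CPM in SAS siControl. Cal33 had 0.527, 0.347, 0.809 and 0.718 CPM with siITGA7 and 0.579, 2.01, 0.717 and 1.17 CPM with siControl. The SAS groups did not overlap, and the log2 change in SAS was 1.91 ± 0.25 (SE, n = 4 per group; edgeR adjusted p = 0.00114). In an intron of ANO2 (5806435 to 5808090) there were 156, 164, 176 and 175 CPM in SAS siITGA7 and 222, 241, 271 and 288 CPM in SAS siControl. Cal33 had 4.29, 4.05, 4.95 and 4.41 CPM with siITGA7 and 2.03, 2.26, 3.23 and 3.18 CPM with siControl. In SAS that peak fell by 0.55 ± 0.08 on the log2 scale (edgeR adjusted p = 4.39e-07). The 4 promoter-class peaks that fell were those of RASSF8 (-0.43 ± 0.08, adjusted p = 0.000106), ALG10 (-0.39 ± 0.09, adjusted p = 0.00107), DNAI7 (-0.38 ± 0.09, adjusted p = 0.00181) and SINHCAF (-0.25 ± 0.08, adjusted p = 0.0293), all by edgeR with n = 4 per group. Among the 11 that rose was the peak over the start of GRIN2B (0.55 ± 0.17, edgeR adjusted p = 0.0256). The intergenic peak near PARP11 fell by 0.32 ± 0.08 (edgeR adjusted p = 0.00204) and the DNAI7 intron peak by 0.29 ± 0.08 (edgeR adjusted p = 0.0102).

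The 10 genes with the largest rises all lay elsewhere, and 0 of their 10 peaks passed the rule on the siControl libraries alone, so they had to be high after siITGA7 and are given as a description. Their peaks were 726 kb from DCUN1D4 (log2 change 3.70), 649 kb from CWH43 (3.25), 17.0 kb from EGLN2 (3.17), 471 kb from CDH26 (2.60), 31.8 kb from SLC10A1 (2.39) and 296 kb from DTWD2 (2.36). The remaining ones were a promoter-class peak at TNPO1 (2.46) and peaks in EHBP1 (2.39), RALGAPA2 (2.38) and RSRC1 (2.35). In 9 of the 10 the SAS siControl mean was under 5 CPM. The other, nearest to CWH43 (chromosome 4, 49710845), had means of 111 CPM in SAS siITGA7 and 12.2 CPM in SAS siControl, and its SAS siControl mean was 3.41 times the Cal33 siControl mean. It lies beside the centromere in the DNA of uncertain read counting described above. TNPO1 encodes a nuclear import receptor. Its promoter-class peak (chromosome 5, 72899869 to 72900313), with no RefSeq start of TNPO1 inside it, had 15.8, 11.8, 9.89 and 9.11 CPM in SAS siITGA7. In SAS siControl that peak had 2.00, 2.26, 1.64 and 2.51 CPM.

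Rises were also called in members that passed on the siControl libraries alone. The peak beside the centromere of chromosome 1 rose by 1.01 ± 0.11 (edgeR adjusted p = 2.46e-06). Nearest to H3-7, on the same chromosome, 15 of 16 such members were higher, with a median log2 change of 1.04. Of all 20 members with that name, 0 lay inside H3-7 and 0 at its promoter. A run of 24 members named by H3-7 and LINC02798 spans the centromere (125166906 to 143264904), in the DNA of uncertain read counting described above.

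The 10 genes with the largest falls had log2 changes between -1.33 and -0.84. All 10 of their peaks passed the rule on the siControl libraries alone. A high SAS siControl level thus counted in their choice, which favoured a fall. The peaks in LYPD6 and SMYD3 had means of 3.18 and 3.20 CPM in SAS siITGA7, under the 5 CPM of the rule. Their SAS siControl means were 9.40 and 8.95 CPM, so these 2 are given as a description. Intronic peaks fell in LYPD6 (-1.33 ± 0.33), SMYD3, a lysine methyltransferase (-1.29 ± 0.34), MAML3, a Notch coactivator (-1.09 ± 0.33), ADAMTS2, a procollagen protease (-0.90 ± 0.22), and LMCD1 (-0.84 ± 0.28). Promoter-class peaks fell at ZNF816-ZNF321P (-0.95 ± 0.26), ZNF71 (-0.91 ± 0.28) and SPAG16 (-0.91 ± 0.29), and intergenic peaks near ZNF706 (-1.10 ± 0.21) and KRABD3 (-0.90 ± 0.22). Their edgeR adjusted p values ran from 5.85e-05 to 0.0427. In LYPD6 (chromosome 2, 149410775 to 149411447) there were 0, 3.48, 4.95 and 4.28 CPM in SAS siITGA7 and 11.4, 8.49, 9.03 and 8.63 CPM in SAS siControl. The calls at MAML3, ZNF816-ZNF321P, ZNF71, SPAG16 and LMCD1 were each lost in a fit without at least 1 library.

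By list, over members that passed on the siControl libraries alone, where 13.8% of all those tested were higher, neural genes had 121 of 239 higher, 120 of them at GRIN2B, and 0 lower. Cell cycle genes had 15 of 44 (14 near CCND2) and endothelial and blood cell markers 11 of 51 (10 at VWF), both mostly in the first 40 Mb of chromosome 12. Mesenchymal genes had 1 of 19 and forkhead, GATA, SOX and RUNX factors 1 of 12, counts too small to set against the 4.74% elsewhere. Homeobox and T-box factors (23), integrins (5), laminin and basement membrane genes (8), growth factor receptor genes (13) and TGF-beta, WNT and Notch genes (9) had 0 such members called by edgeR in either direction, and over all members tested 1558 of 4556 had an unadjusted p under 0.05.

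In Cal33 few members could be tested, since most were nearly unread there. Of 785 tested, 21 (2.68%) were higher and 7 (0.892%) lower after siITGA7, where 4.52% and 4.67% of all 75230 peaks were. The 28 calls became 15 without Cal33 siITGA7 replicate 2, 17 without Cal33 siITGA7 replicate 3 and 54 without Cal33 siControl replicate 3. Called higher peaks included the VGLL3 start, which rose by 0.79 ± 0.16 (SE, n = 4 per group; edgeR adjusted p = 0.00185). The FBLN2 intron peak (chromosome 3, 13599167 to 13601622) had 9.94, 8.10, 7.18 and 7.59 CPM in Cal33 siITGA7 and 3.47, 2.76, 6.57 and 6.19 CPM in Cal33 siControl, and rose by 0.68 ± 0.19 (edgeR adjusted p = 0.0183). This call was lost without siControl replicate 1, siControl replicate 2 or siITGA7 replicate 1 of Cal33. Others called higher were near UQCRFS1 (1.73), ALG10 (1.45 and 1.34), DNAH5 (1.25), AMOTL2 (1.21), NIM1K (1.10), GRIK3 (0.90), GRIN2B (0.80), LMNTD1 (0.66) and CLXN (0.85). Further ones were at ADAMTS6 (1.06), at the start of LOC101929494 (0.90), and in ADAMTS18 (1.08), TRIO (1.06), ADCY2 (0.99), DCDC2C (0.98), CLSTN2 (0.87), ITPR2 (0.79) and SUSD1 (0.67). The 7 lower ones were near EGR1 (-0.77) and ARC (-0.80), both immediate-early genes, near NTF3 (-0.72), SSPN (-0.42) and LOC124903391 (-0.86), at TRAK1 (-0.70) and in DNAI7 (-0.41). Of these 7, the peaks of ARC, TRAK1 and LOC124903391 met the rule only with the siITGA7 libraries, whose Cal33 values count in the rule too, and are a description. All 21 higher ones passed on the siControl libraries alone. A low Cal33 siControl mean was part of that choice and favours a rise, so it is no safeguard for these calls. Of 718 members tested that passed on the siControl libraries alone, 21 were higher and 4 lower, with a median change of 0.14. Of 67 tested that passed only with the siITGA7 libraries, 0 were higher and 3 lower, with a median of -0.34. Values in brackets are log2 changes.

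A test of whether the siITGA7 effect differed between the lines called 42 of the 4980 members with a more positive change in SAS and 17 with a more negative one. Over 94918 peaks tested the shares were 0.27% and 0.491%, and members had 0.843% and 0.341%. In the first 40 Mb of chromosome 12, 3 of 1217 members (0.247%) had a more positive change in SAS and 2 (0.164%) a more negative one. These shares are not above those of all peaks, so the rises called there in SAS were not shown to differ from Cal33. Most of these members were nearly unread in Cal33, where 146 of the 1217 could be tested. Of the 42, 26 were among the 925 peaks that passed only with the siITGA7 libraries, and the 4055 that passed on siControl libraries alone had 16 (0.395%) and 17 (0.419%). Of the 5 smallest p values, 3 belonged to peaks that passed on the siControl libraries alone. The peak 10.5 kb from CNIH3 (chromosome 1, 224750991 to 224751152) had 79.1, 67.6, 52.8 and 47.1 CPM in SAS siITGA7 and 13.2, 28.3, 17.9 and 10.6 CPM in SAS siControl. Cal33 had 0.753, 0.463, 0.505 and 0.923 CPM with siITGA7 and 2.46, 1.51, 0.837 and 3.01 CPM with siControl. The SAS groups did not overlap, and the Cal33 groups did. Its difference of log2 changes, SAS minus Cal33, was 3.35 ± 0.45 (SE; edgeR adjusted p = 8.11e-06). Peaks near GALNT18 (4.05 ± 0.63) and DNAJB6 (2.10 ± 0.34) followed, with edgeR adjusted p of 2.91e-05 and 6.68e-05. The other 2, in introns of RELL1 (3.35) and INO80 (2.42), met the rule only with the siITGA7 libraries and are a description. At CLXN, ANO2, VGLL3 and FBLN2 the difference was negative. The peaks of CLXN, VGLL3 and FBLN2 had been called higher in Cal33, whose libraries the difference uses, so it is not independent of those calls. The peak near CLXN (chromosome 8, 48590059 to 48591013) had 27.7, 27.9, 27.2 and 23.0 CPM in SAS siITGA7 and 36.0, 35.7, 42.1 and 40.1 CPM in SAS siControl, but 4.82, 5.20, 5.05 and 5.23 CPM in Cal33 siITGA7 and 2.46, 3.01, 2.87 and 2.51 CPM in Cal33 siControl. It fell in SAS (-0.53 ± 0.14, edgeR adjusted p = 0.00998) and rose in Cal33 (0.85 ± 0.21, edgeR adjusted p = 0.00891), with a difference of -1.47 ± 0.26 (edgeR adjusted p = 0.000343).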

How the data were processed

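ATAC-seq counts of 16 libraries over one set of peaks were used as deposited by the authors, as raw counts per peak, together with the deposited peak annotation and its distance to the gene start. The deposited normalized signal was not used. The replicates are biological replicates per the labels. Reads were converted with bcl2fastq 2.20.0 and placed on GRCh38 (hg38), per the submitters' processing notes. The labels and headers name no aligner, peak caller or counter. The members and gene lists were chosen with earlier results of these data known. CPM is the count divided by the sum of the library, times 1e+06. Peaks were named by the annotated identifier at promoters, else by the RefSeq (GRCh38.p14) gene around or nearest to them; 410 of 531 identifiers of SAS-open promoter-class peaks were matched.

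Calls came from edgeR 4.0.16 (R 4.3.3), with TMM factors, its default filter on low counts, a quasi-likelihood test per line and an interaction term over 16 libraries, with p-values adjusted (Benjamini-Hochberg) over all peaks tested. The script was tested on simulated data. Peaks named in the text followed a rule: the 10 strongest, the 10 genes with most members, the 10 largest called rises and falls without overlap, all calls in Cal33, the 5 smallest interaction p values, the top 3 genes per list, the 5 longest runs and the edge of the threshold. Genes outside it are the leading members elsewhere than in the first 40 Mb of chromosome 12, those behind printed sequences, and a few calls in lists, chosen after their values were seen. The 40 Mb border and the rule on siControl libraries for counts of calls were added after seeing the data. Some genes that the rule names are not reported here.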

Additional observations from a re-analysis of the deposited data

Results flagged for a closer look

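Among 96 groups of 4 libraries examined, 4 had a library whose gap to the nearest other, divided by the range of the group, passed a limit that chance passes in about 1 of 20 groups. The share of counts in SAS-open peaks of the first 40 Mb of chromosome 12 had a gap of 0.949 of the range in SAS siControl, where replicate 3 had 2.90% and the others 3.05 to 3.06%. At the VGLL3 start the gap was 0.844 in SAS siITGA7 (replicate 1 had 141 CPM), and near GALNT18 it was 0.939 in SAS siITGA7 (replicate 1 had 47.5 CPM and the others 36.3 to 37.0 CPM). Near CLXN it was 0.862 in SAS siITGA7 (replicate 4 had 23.0 CPM).

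The interaction test called a difference of the siITGA7 effect, as SAS minus Cal33 on the log2 scale, for 21 of the named peaks. It was positive near GALNT18 (4.05), EGLN2 (3.43), CNIH3 (3.35), CDH26 (3.10), CACNA1C (2.57), DNAJB6 (2.10) and LINC02798 (0.79), and in RELL1 (3.35) and INO80 (2.42). Of these 9 peaks, those of EGLN2, CDH26, RELL1 and INO80 met the rule only with the siITGA7 libraries, so a high SAS siITGA7 value was part of their choice and their p values support nothing. At CNIH3 the means were 61.7 ± 14.5 CPM in SAS siITGA7 and 17.5 ± 7.83 CPM in SAS siControl, and 0.661 ± 0.217 CPM in Cal33 siITGA7 and 1.95 ± 0.970 CPM in Cal33 siControl (SD, n = 4 each). It was negative near UQCRFS1 (-2.24), NIM1K (-1.64), CLXN (-1.47), DNAH5 (-1.20), MYC (-0.83) and LMNTD1 (-0.78), at the starts of VGLL3 (-0.94) and LOC101929494 (-0.92), and in ANO2 (-1.30), CLSTN2 (-1.14), ADCY2 (-1.06) and FBLN2 (-0.96). Of these 12 peaks, 10 had been called higher after siITGA7 in Cal33. Every call in Cal33 was named by rule, and the interaction uses the same Cal33 libraries. A negative difference at those 10 was thus favoured by their choice and is not separate evidence.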

How the results depend on the processing

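The 865 calls among SAS-open peaks in SAS became 270 with DESeq2, 299 with at least 50 counts, 570 in a fit of all 16 libraries, 187 after thinning to the smallest library, and 656 to 961 without 1 library, and 421 lay outside the first 40 Mb of chromosome 12. The 28 calls in Cal33 became 17, 11, 75 and 13 under the same 4 settings, 47 with sequencing runs as covariate, and 15 to 54 without 1 library. The 59 interaction calls became 38 with DESeq2, 21 with at least 50 counts and 41 to 77 without 1 library. The cause was not tested. The replicate numbers did not pair the samples, with correlations of deviations from -0.165 to 0.00652, and with a replicate block there were 833, 29 and 52 calls. The 4980 peaks became 10056 at 4 times and 2522 at 16 times Cal33, 13195 at 2 CPM, 2221 at 10 CPM and 2111 with TMM-scaled CPM. The promoter share of 11.2% became 10.3% at 16 times and 10.15% at 2 CPM, and 10.9 to 11.3% without 1 replicate number. The chromosome 12 share of 28.3% became 16.6%, 47.7%, 15.5%, 42.4% and 51.4% in the order of the peak numbers, 26.9% with siControl libraries only and 27.5 to 28.3% without 1 replicate number. The median log2 change of 0.20 became 0.13 at 4 times, 0.34 at 16 times, 0.31 with TMM-scaled CPM, 0.0937 with siControl libraries only, 0.10 outside the first 40 Mb of chromosome 12, and 0.19 to 0.20 without 1 replicate number. The calls at MAML3, ZNF816-ZNF321P, ZNF71, SPAG16 and LMCD1 were lost without 1 or more SAS libraries. Of the named calls, 15 of 20 in SAS, 7 of 28 in Cal33 and 5 of 5 interactions were kept under every alternative run. The sequencing run could not be tested in SAS, where each library had 1 run. Counts outside the first 40 Mb of chromosome 12, counts without peaks over 100 kb from a gene and calls among peaks chosen on siControl libraries only were added after seeing the data. Depth limited the SAS siITGA7 libraries most.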
